A study of Mus musculus with 12 samples.

Results

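The genes described here are the sodium, calcium and other ion channel genes on an expression array of migrating cortical interneurons. They were chosen by name: every gene with a probe set of 1 symbol whose name starts with Scn and a digit, Cacna, Cacnb, Cacng, Hcn and a digit, Ryr and a digit, Itpr and a digit, Trpc, Trpm, Trpv, Ano and a digit, or Clcn. The choice was made with earlier results of these data known. This took in 46 of the 11358 genes of the array table, read by 102 probe sets, and each gene was represented by its probe set with the highest mean over 12 arrays. Of the 46 genes, 31 rose above a filter on dim values and were tested, and 15 did not. The names cover more than cation channels: Ano and Clcn genes encode chloride channels, chloride transporters and lipid scramblases, several Cacng genes encode auxiliary proteins of glutamate receptors, and Trpc4ap encodes a protein that associates with TRPC4 and is not itself a channel. Hcn and Trpv genes were not analysed here.

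The study compared cortical interneurons of 2 origins, the medial ganglionic eminence (MGE) and the caudal ganglionic eminence (CGE), at an earlier and a later embryonic day (E). MGE cells were taken at E14.5 and at E18.5 from embryos that carried Nkx2-1-Cre Tg and were R26R-YFP fl/fl, in which Cre made in the Nkx2-1 domain switches on a yellow fluorescent protein at the Rosa26 locus. For CGE cells, taken at E16.5 and at E18.5, the embryos were Nkx2-1-Cre;Dlx1-lox-Venus-lox, in which Cre removes a Dlx1-driven Venus reporter, so that the cells left fluorescent are those of the lateral and caudal eminences and not of the caudal one alone. All groups therefore carried Nkx2-1-Cre, on a mixed C57BL/6 and CBA background. The study used mice of both sexes and pooled the tissue samples, and the sex of the embryos on each array is not given. Fluorescent cells were sorted from dissociated cortex and read on Affymetrix Mouse430_2 arrays, 3 per group. The first MGE sample was 2 days younger than the first CGE sample, so lineage and day cannot be told apart in the early comparison, and the reporters differ between lineages in every comparison. Expression is given as log2 intensity, so that a difference of 1 is a doubling. Levels of different genes are not compared, because probe sets differ in brightness.

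Voltage-gated sodium and calcium channels open when the membrane depolarises: sodium channels carry the rising phase of the action potential, and calcium channels turn depolarisation into calcium entry that drives transmitter release, gene expression and, in embryonic interneurons, migration and its arrest. Each channel is built on a pore-forming alpha subunit, which beta, alpha2delta or gamma subunits help to fold, reach the surface and gate. Inositol trisphosphate (IP3) receptors and ryanodine receptors release calcium from the endoplasmic reticulum, TRP channels admit cations in response to lipids, stretch or receptor signals, and mature fast-spiking interneurons are known for their dependence on the sodium channel encoded by Scn1a.

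The 12 arrays were alike in overall brightness, and replicates of a group correlated at r = 0.973 to 0.995 over all probe sets of the table. MGE and CGE markers followed the labels in the early comparison, where all 5 MGE lineage genes tested were higher and all 7 CGE lineage genes tested were lower. At E18.5 they did so less fully: 4 of 5 MGE lineage genes were called higher and 5 of 7 CGE lineage genes lower. Differences of the CGE lineage genes there ran from -7.48 to 0.73. In MGE cells 2 of these 7 rose and 1 fell between the days, with changes of up to 4.47. Genes of oligodendrocyte precursors (OPCs), glial cells that also arise in the Nkx2-1 domain, were highest in 1 group. The log2 of their summed level over 13 genes was 14.6 to 15.2 on the MGE E18.5 arrays, against 11.9 to 12.2 at MGE E14.5, 11.7 to 12.1 at CGE E16.5 and 11.9 to 12.4 at CGE E18.5. All 13 lay above the filter level at MGE E18.5, while Sox10, Olig2, Gpr17 and Nkx2-2 were among the 10 below it at CGE E18.5. In the early comparison, 6 of the 13 were also higher in MGE cells (46.2%, against 4.15% of all genes) and 1 was lower. The median difference over the 13 was 0.79 early. Pan-GABAergic genes, at 14.2 to 14.4 at MGE E18.5 against 14.7 to 15.0 in the other 3 groups, were lower in 6 of 7 cases in MGE maturation. Radial glial and astrocytic genes rose in 7 of 11 cases in that comparison, and the 3 microglial genes tested rose in both lineages. Genes of the lateral eminence reached 12.5 to 13.4 in summed level at CGE E18.5 and 11.04 to 12.6 at CGE E16.5, against 9.90 to 10.9 on MGE arrays. In these bulk samples, more cells of a type and more RNA per cell cannot be told apart.

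Promoter sequence is shown for the 4 genes on which the results below turn most: Itpr2 and Cacna2d3, with the largest differences upwards and downwards, and Scn1a and Cacna2d2, which were higher in MGE cells at both stages. The 250 bases before the transcription start are from RefSeq on GRCm38.p6, 5′ to 3′ on the strand of the gene, with CG pairs in capitals. They lie at chr6:146502224-146502473 on the minus strand for Itpr2, chr2:66440838-66441087 on the minus strand for Scn1a, chr9:107399630-107399879 on the plus strand for Cacna2d2 and chr14:29721865-29722114 on the minus strand for Cacna2d3.
Itpr2: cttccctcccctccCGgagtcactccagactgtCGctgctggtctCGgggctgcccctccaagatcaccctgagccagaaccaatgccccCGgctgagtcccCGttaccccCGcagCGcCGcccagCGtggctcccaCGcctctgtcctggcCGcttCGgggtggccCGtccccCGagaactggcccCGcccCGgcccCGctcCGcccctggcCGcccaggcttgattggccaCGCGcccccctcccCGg
Scn1a: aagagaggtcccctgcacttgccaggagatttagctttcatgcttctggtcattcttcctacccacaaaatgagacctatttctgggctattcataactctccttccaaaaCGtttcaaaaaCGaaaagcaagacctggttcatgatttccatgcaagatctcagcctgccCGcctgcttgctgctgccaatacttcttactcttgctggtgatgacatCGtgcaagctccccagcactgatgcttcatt
Cacna2d2: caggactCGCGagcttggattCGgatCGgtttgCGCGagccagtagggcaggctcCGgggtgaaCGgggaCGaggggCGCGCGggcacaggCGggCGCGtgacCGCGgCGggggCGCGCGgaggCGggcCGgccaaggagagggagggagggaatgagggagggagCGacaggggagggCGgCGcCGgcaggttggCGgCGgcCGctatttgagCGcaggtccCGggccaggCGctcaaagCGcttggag
Cacna2d3: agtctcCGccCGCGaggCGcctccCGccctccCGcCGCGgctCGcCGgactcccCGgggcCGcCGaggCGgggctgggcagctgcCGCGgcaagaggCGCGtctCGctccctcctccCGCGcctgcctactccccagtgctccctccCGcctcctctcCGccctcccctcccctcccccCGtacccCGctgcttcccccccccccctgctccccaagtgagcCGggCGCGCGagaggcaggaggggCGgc
The 4 windows were unlike in base composition. Scn1a held 4 CG pairs, close to the median of 6 over all 32851 promoters of the table, and 62.2% of promoters held at least as many. Itpr2 held 22, Cacna2d3 30 and Cacna2d2 34, numbers reached by 14.8%, 5.94% and 3.53% of promoters. Of the 46 genes, 40 had an entry in the table, with 55 promoters between them. The homeodomain core TAATTA, sought on both strands, was in 0 of the 55 and in 4.84% of all promoters. ACAAAG, a SOX core, was in 9 of the 55 (16.4%) and in 16.46% of all, and TATAAA was in 6 (10.9%) and in 12.4% of all. None of the 4 printed windows holds any of these 3 motifs.

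A group of channel genes differed between MGE and CGE cells at both stages, although in the early comparison lineage and day cannot be told apart. In the early comparison, MGE E14.5 against CGE E16.5, 6 of 31 genes had a higher level in MGE cells (19.4%, where 4.15% of all 8791 genes were) and 2 were lower (6.45%, against 5.89% of all genes). At E18.5, 9 were higher (29.0%, against 13% of all genes) and 3 were lower (9.68%, against 9.85%). A gene counted as called at an adjusted p under 0.05 in limma, adjusted over all genes. Of the genes called higher, Itpr2 passed the filter only through the MGE E18.5 arrays, and Scn1a and Cacna1e only through MGE arrays. Their place in these counts and their adjusted p-values are therefore not independent support for their height in MGE cells. The median difference over the 31 genes was 0.03 early and 0.22 late, against -0.02 and -0.02 over all genes. Cacng3, Cacna2d2, Scn1a, Cacnb4, Cacna1a and Scn3a were higher and Cacna2d3 and Trpc4 were lower in MGE cells in both comparisons. OPC genes were also higher in MGE cells, in 6 of 13 cases early and 12 of 13 late. Their part in these differences was not tested.

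**Figure D1:**
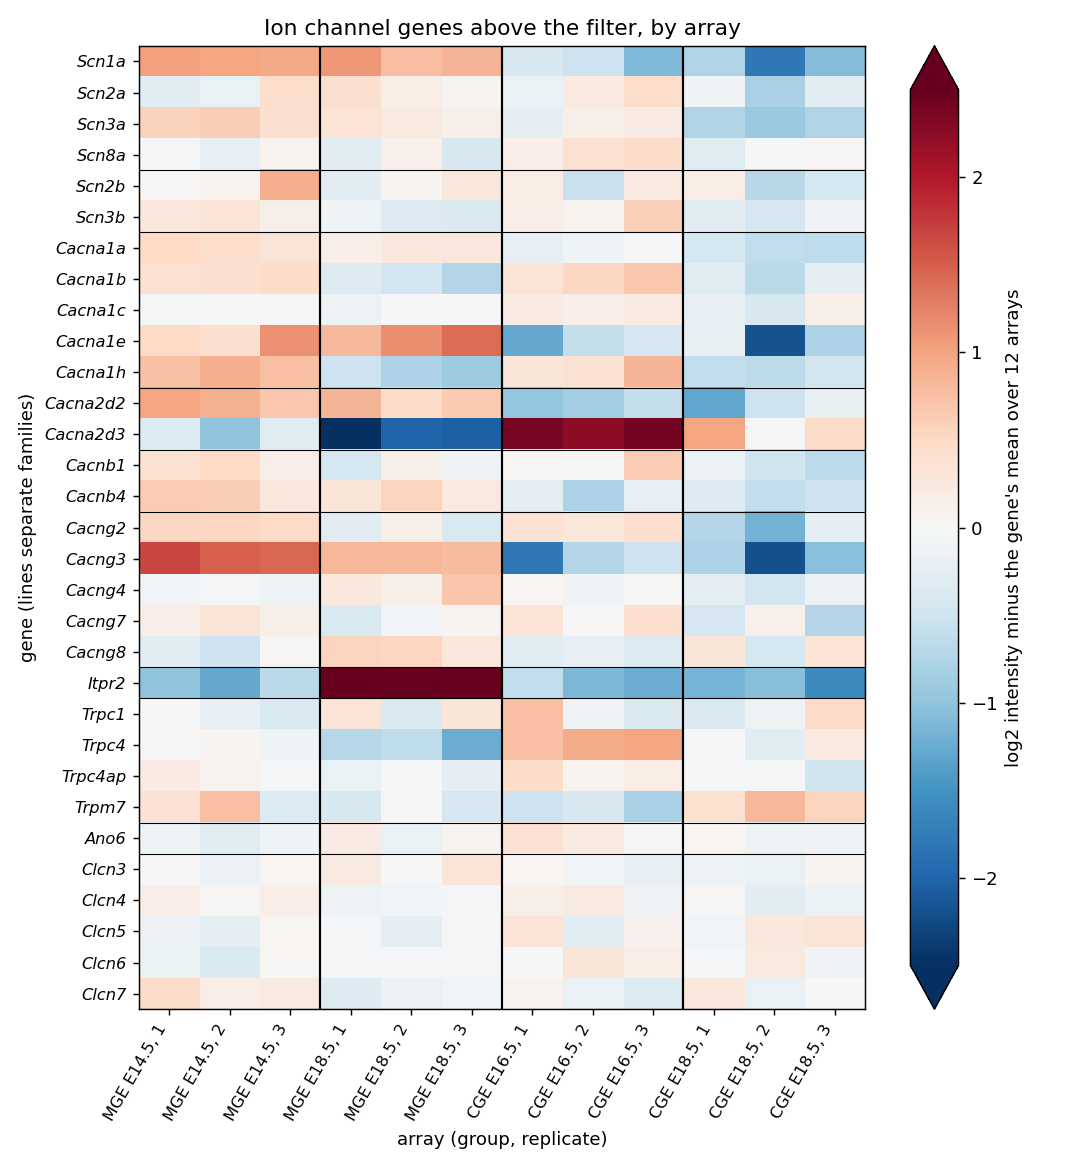
Log2 intensity of the 31 tested channel genes (rows, grouped by family) on the 12 arrays (columns, by group and replicate), with the gene's mean over all arrays subtracted; red is above and blue below that mean, and the colour scale ends at a distance of 2.5. Scn1a, Cacna2d2, Cacna1e and Cacng3 are red in the MGE columns and mostly blue in the CGE columns, Cacna2d3 is darkest red at CGE E16.5, and Itpr2 is red on the 3 MGE E18.5 arrays and blue on the other 9.

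Among the pore-forming sodium channel subunits, Scn1a, which encodes NaV1.1, differed most between lineages. Its log2 level was 8.54, 8.51 and 8.46 on the 3 MGE E14.5 arrays and 8.60, 8.30 and 8.38 at MGE E18.5. It was 7.12, 7.00 and 6.42 at CGE E16.5 and 6.76, 5.74 and 6.43 at CGE E18.5. Every MGE array lay above every CGE array, and no CGE array exceeded the filter level of its array, 7.10 to 7.17, so the differences may be understated. They were 1.66 ± 0.24 (SE, adjusted p = 0.00081) early and 2.12 ± 0.24 (adjusted p = 5.7e-05) late, a 4.34-fold difference at E18.5. Scn1a was tested only because it was high in MGE cells, so these adjusted p-values are not independent support for that height. A further Scn1a probe set gave 1.62 and 1.97, both called.

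Scn3a, which encodes NaV1.3, the main embryonic form of the channel, was higher in MGE cells by 0.49 ± 0.13 early and 1.05 ± 0.13 late. Its group means were 10.94 ± 0.11 (SD, n = 3) at MGE E14.5, 10.65 ± 0.10 at MGE E18.5, 10.45 ± 0.24 at CGE E16.5 and 9.60 ± 0.11 at CGE E18.5. The late difference (adjusted p = 0.00013) was held in every alternative run, whereas the early one (adjusted p = 0.037) was lost in 8 of them. Scn2a (NaV1.2) and Scn8a (NaV1.6), channels of excitatory axons and mature axon initial segments, were called in none of the comparisons on the brightest probe set, with group means of 7.35 to 7.96 and 8.23 to 8.74. A dimmer Scn2a probe set was called higher in MGE cells early, at 0.61 ± 0.12 (adjusted p = 0.0065), and late, at 0.52 ± 0.12 (adjusted p = 0.0087), and fell in MGE cells by 0.39 ± 0.12 (adjusted p = 0.042). On chromosome 2, Scn3a and Scn2a are direct neighbours in the RefSeq gene order and Scn1a, Scn9a and Scn7a lie next to each other. Of these 5 genes, Scn9a and Scn7a were below the filter, and the MGE excess was called for Scn1a and Scn3a. The Scn2a probe sets disagreed, since the brightest differed by -0.17 ± 0.23 early and 0.61 ± 0.23 late and was not called. The beta subunit genes Scn2b and Scn3b, whose products anchor and modulate the channel, did not pass the test between lineages, with differences of -0.04 to 0.39.

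Pore-forming calcium channel genes divided in the same way. Cacna1a, which encodes the P/Q-type channel of presynaptic terminals, read 7.92, 7.86 and 7.75 at MGE E14.5 and 7.58, 7.69 and 7.71 at MGE E18.5. The CGE levels were 7.21, 7.32 and 7.41 at E16.5 and 6.97, 6.81 and 6.79 at E18.5. The lineages did not overlap at either stage, with CGE E18.5 below the filter level, and the differences were 0.53 ± 0.11 (adjusted p = 0.007) early and 0.80 ± 0.11 (adjusted p = 0.00018) late.

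Cacna1e, which encodes the R-type channel, spread more widely. It read 7.56, 7.47 and 8.22 at MGE E14.5, 7.88, 8.23 and 8.47 at MGE E18.5, 5.80, 6.47 and 6.66 at CGE E16.5 and 6.88, 4.89 and 6.30 at CGE E18.5. All 6 CGE values were below all 6 MGE values and below the filter level, with CGE E18.5 replicate 2 lowest by far. The difference was called late, at 2.17 ± 0.43 (adjusted p = 0.0032), and not early, at 1.44 ± 0.43 (adjusted p = 0.055). Cacna1e too was tested only because it was high in MGE cells, so the late call is not independent support for that height. The change between the stages, 0.73 ± 0.60, did not pass the test (adjusted p = 0.53). Cacna1b (N-type), Cacna1c (L-type) and Cacna1h (T-type) did not pass the test between lineages at either stage on their brightest probe sets, with differences of -0.21 to 0.29. Dimmer probe sets of 2 of these genes did pass, both lower in MGE cells: that of Cacna1c at -1.02 ± 0.14 early (adjusted p = 0.0005) and -1.002 ± 0.14 late (adjusted p = 0.00029), and that of Cacna1h at -0.81 ± 0.23 late (adjusted p = 0.023).

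The alpha2delta genes, whose products carry the channel to the surface and also act at synapses, moved in opposite directions. Cacna2d2 read 11.29, 11.19 and 10.99 at MGE E14.5 and 11.16, 10.76 and 10.96 at MGE E18.5. CGE cells gave 9.33, 9.44 and 9.72 at E16.5 and 9.01, 9.77 and 10.14 at E18.5. MGE values were above all CGE values, by 1.66 ± 0.24 (adjusted p = 0.00077) early and 1.32 ± 0.24 (adjusted p = 0.0019) late, and the gene's other probe set was called in the same direction at 1.03 and 0.75.

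Cacna2d3, read by a single probe set, had the reverse order. It read 10.16, 10.03 and 10.18 at CGE E16.5 and 8.77, 7.80 and 8.27 at CGE E18.5, whereas MGE cells gave 7.45, 6.78 and 7.49 at E14.5 and 5.05, 5.78 and 5.76 at E18.5. The 4 groups did not overlap, MGE E18.5 was below the filter level, and the order from high to low was CGE E16.5, CGE E18.5, MGE E14.5, MGE E18.5. MGE levels were lower by 2.88 ± 0.27 early (-2.88 on the log2 scale, adjusted p = 3.4e-05) and by 2.75 late (-2.75 ± 0.27, adjusted p = 1.9e-05), and the late difference may be understated because MGE E18.5 was dim. Cacna2d1, the gene of the most widespread alpha2delta subunit, was below the filter on all arrays, at 5.60 to 6.61.

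Of the intracellular beta subunit genes, Cacnb4 separated the lineages and Cacnb1 did not pass the test. Cacnb4 read 10.44, 10.43 and 10.10 at MGE E14.5, 10.11, 10.37 and 10.06 at MGE E18.5, 9.59, 9.05 and 9.61 at CGE E16.5 and 9.49, 9.19 and 9.30 at CGE E18.5. No CGE array reached the lowest MGE array. The differences were 0.91 ± 0.17 (adjusted p = 0.0047) and 0.85 ± 0.17 (adjusted p = 0.0036), and both further probe sets of the gene were called in the same direction at both stages.

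The Cacng genes on the array encode mainly TARPs, transmembrane proteins that traffic AMPA-type glutamate receptors and set their kinetics, and Cacng3 was the member most raised in the early comparison. It read 10.02, 9.85 and 9.79 at MGE E14.5 and 9.19, 9.18 and 9.15 at MGE E18.5. It read 6.57, 7.62 and 7.84 at CGE E16.5 and 7.58, 6.16 and 7.32 at CGE E18.5. The MGE values lay above all CGE values, 2 of which were under the filter level, and exceeded them by 2.55 ± 0.36 (adjusted p = 0.00067) early and 2.15 ± 0.36 (adjusted p = 0.0011) late. Cacng4, another TARP gene, was higher in MGE cells at E18.5 by 0.65 ± 0.14 (adjusted p = 0.0063) and differed by -0.07 ± 0.14 early, and Cacng2, Cacng7 and Cacng8 did not pass the test between lineages.

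Among the TRP genes, Trpc4, whose product is a receptor-activated cation channel, was lower in MGE cells. It read 9.66, 9.74 and 9.57 at MGE E14.5, 8.97, 9.05 and 8.44 at MGE E18.5, 10.43, 10.61 and 10.67 at CGE E16.5 and 9.67, 9.41 and 9.92 at CGE E18.5. Within each stage the lineages did not overlap, while MGE E14.5 and CGE E18.5 overlapped. The differences were -0.91 ± 0.17 (adjusted p = 0.0052) early and -0.85 ± 0.17 (adjusted p = 0.0041) late. Of 2 further probe sets, 1 was not called early, at -0.42.

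**Figure D2:**
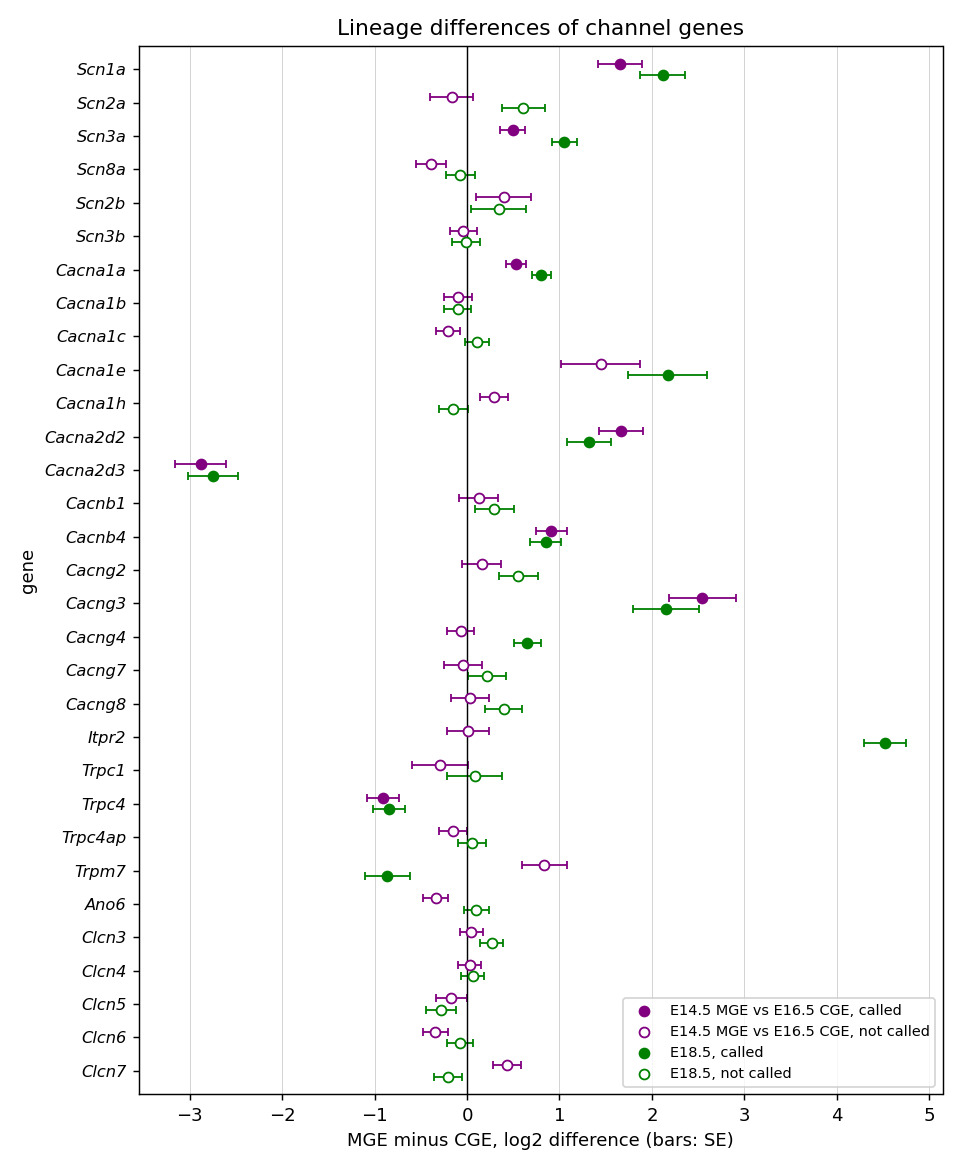
MGE minus CGE difference on the log2 scale (x axis, bars are SE from limma) for each of the 31 tested genes (y axis), for MGE E14.5 against CGE E16.5 (purple) and for E18.5 (green); filled points passed the test. Purple and green lie together for Scn1a, Cacna2d2, Cacna2d3, Cacnb4, Cacng3 and Trpc4, and far apart for Itpr2, at 0.01 and 4.52.

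Itpr2, the gene of the type 2 IP3 receptor, an endoplasmic reticulum calcium release channel best known from glia and secretory cells, was near the bottom of the scale in 3 groups and high in the other. It read 5.03, 4.75 and 5.36 at MGE E14.5, 5.40, 4.90 and 4.79 at CGE E16.5 and 4.86, 4.97 and 4.43 at CGE E18.5. On the MGE E18.5 arrays it read 9.09, 9.09 and 9.64. These 3 arrays lay above the filter level and the other 9 below it, with no overlap. The filter asked for at least 3 arrays, so Itpr2 was tested only because it was high in this group. Its adjusted p-values are therefore not independent support for that height. The difference at E18.5 was 4.52 ± 0.23 (adjusted p = 5.8e-08), a 23.0-fold difference on the fitted scale, and early it was 0.01 ± 0.23 (adjusted p = 0.99). The change of the lineage difference between stages, tested as an interaction, was 4.51 ± 0.32 (adjusted p = 3.9e-06), and both further kept probe sets were called in the same direction in it, at 4.18 and 2.40. Because the gene was dim in the other 3 groups, their levels have no order and the difference may be understated. The OPC genes rose in that same group, with 12 of 13 called in MGE maturation and a median difference of 3.98. Their part in the Itpr2 result was not tested.

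Change with embryonic day ran mainly downwards. In MGE cells from E14.5 to E18.5, 7 of the 31 genes fell (22.6%, where 9.77% of all genes did) and 3 rose (9.68%, against 11.4%). Among the rises, Itpr2 passed the filter only through the MGE E18.5 arrays. In CGE cells from E16.5 to E18.5, 8 fell (25.8%, against 6.39%) and 1 rose (3.23%, against 4.52%). The median difference was -0.20 in MGE and -0.32 in CGE cells, against -0.06 and -0.07 over all genes. On their brightest probe sets, Cacna2d3, Cacna1h, Cacna1b, Trpc4, Cacng2 and Scn3b fell in both lineages, which were separate samples on both days. The interval between days was 4 days for MGE and 2 for CGE cells. The MGE falls dropped to 4 without MGE E14.5 replicate 1 or 2 or MGE E18.5 replicate 3, and the rises to 1 without MGE E14.5 replicate 1 or 2 or MGE E18.5 replicate 1. Over all genes the falls went from 859 to 461, 470 and 476 in those runs. The all-gene rises went from 1005 to 757, 740 and 807. Pan-GABAergic genes fell in 6 of 7 cases in MGE and 1 of 7 in CGE cells, and the summed level of Cajal-Retzius cell genes, the early neurons of the cortical surface, went from 10.95 to 11.4 down to 8.46 to 9.17 in MGE and from 11.03 to 11.4 down to 7.75 to 8.89 in CGE cells. Their part in the falls was not tested.

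Cacna1b, which encodes the N-type channel that carries calcium for interneuron migration and release, fell by nearly the same amount in both. It read 10.92, 10.93 and 10.98 at MGE E14.5, 10.21, 10.06 and 9.79 at MGE E18.5, 10.86, 11.04 and 11.21 at CGE E16.5 and 10.24, 9.85 and 10.28 at CGE E18.5. The earlier arrays were all above the later ones, and the lineages overlapped at each stage. The changes were -0.92 ± 0.15 (adjusted p = 0.0011) in MGE and -0.91 ± 0.15 (adjusted p = 0.0049) in CGE cells. Their difference was -0.01 ± 0.21. The probe set used, of the _x_at class, can match related transcripts, and the 2 further kept probe sets of the gene gave -1.07 and -0.92 in MGE and -0.93 and -0.87 in CGE cells, all called.

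Cacna1h, which encodes a T-type channel that opens at weak depolarisation, fell further. It read 9.53, 9.70 and 9.55 at MGE E14.5 and 8.29, 8.03 and 7.91 at MGE E18.5, a change of -1.52 ± 0.15 (adjusted p = 2.9e-05). In CGE cells it read 9.10, 9.17 and 9.64 at E16.5 and 8.19, 8.14 and 8.34 at E18.5, a change of -1.08 ± 0.15 (adjusted p = 0.0029). The earlier and later arrays did not overlap in either lineage. The other probe set of Cacna1h was not called in CGE cells, at 0.12.

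Cacna2d3 fell by 1.71 in MGE (adjusted p = 0.00094) and by 1.84 in CGE cells (adjusted p = 0.0034), from the array values given above, and Trpc4 fell by 0.84 and 0.90. Of the 2 further Trpc4 probe sets, both were called lower in MGE cells, and 1 was not called in CGE cells, at -0.30. Cacng2, which encodes stargazin, the founding TARP, read 10.16, 10.18 and 10.13 at MGE E14.5, 9.36, 9.81 and 9.26 at MGE E18.5, 10.01, 9.93 and 10.06 at CGE E16.5 and 8.90, 8.46 and 9.41 at CGE E18.5. It was higher on every earlier array than on any later one, and changed by -0.68 ± 0.21 (adjusted p = 0.04) in MGE and -1.08 ± 0.21 (adjusted p = 0.01) in CGE cells, the MGE call being lost in 9 alternatives. Scn3b fell by 0.51 and 0.53, at adjusted p of 0.033 and 0.042, calls that were lost in 6 and 17 of the alternatives. The other Scn3b probe set was called in CGE cells, at -0.71, and not in MGE cells, at -0.47 (adjusted p = 0.071). Scn3a fell by 0.85 ± 0.13 in CGE cells (adjusted p = 0.0041) and Cacna1a by 0.46 ± 0.11 (adjusted p = 0.019). The Cacna1a call was lost in 6 alternatives, including without CGE E16.5 replicate 2 or 3 or CGE E18.5 replicate 2, and the gene's other probe set gave 0.002. In MGE cells these 2 genes changed by -0.29 and -0.18, which did not pass the test, and the lineages were not shown to differ in the change (interaction adjusted p = 0.095 and 0.32). Clcn7, the gene of a lysosomal chloride-proton exchanger, fell in MGE cells by 0.47 ± 0.15 (adjusted p = 0.047), from 8.51 ± 0.17 to 8.04 ± 0.12 (SD, n = 3), a call lost in 11 alternatives.

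**Figure D3:**
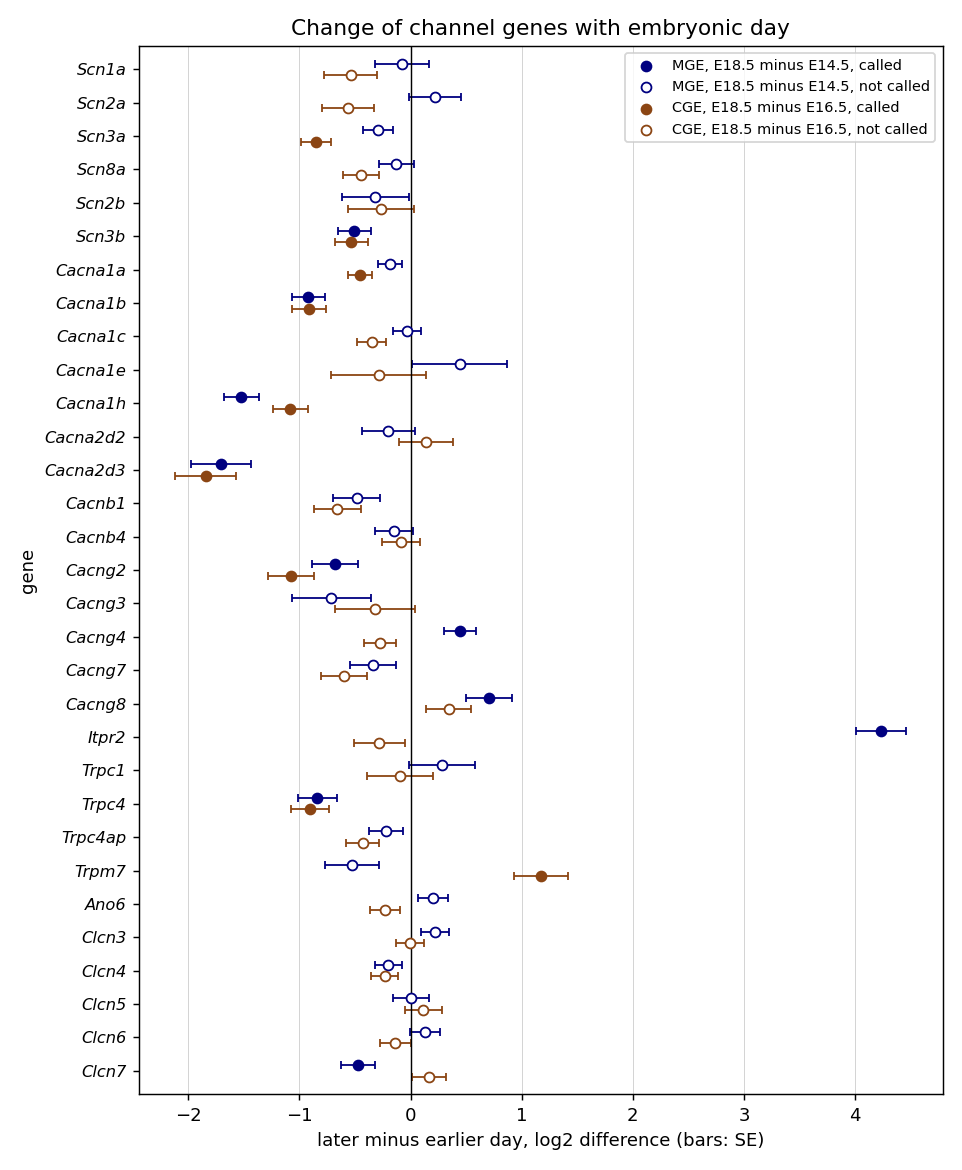
Later minus earlier difference on the log2 scale (x axis, bars are SE from limma) of the 31 tested genes (y axis) in MGE cells (blue, E18.5 minus E14.5) and CGE cells (brown, E18.5 minus E16.5); filled points passed the test. Cacna1b, Cacna1h, Cacna2d3, Cacng2, Scn3b and Trpc4 lie left of 0 in both colours, Itpr2 lies at 4.23 in MGE cells, and Trpm7 lies at 1.17 in CGE cells.

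Besides Itpr2, which rose by 4.23 ± 0.23 (adjusted p = 1.4e-07), 2 TARP genes rose in MGE cells. Cacng8 read 9.03, 8.77 and 9.33 at MGE E14.5, 9.85, 9.82 and 9.58 at MGE E18.5, 9.01, 9.08 and 8.95 at CGE E16.5 and 9.59, 8.85 and 9.63 at CGE E18.5. Its MGE arrays did not overlap between days, while CGE E18.5 replicate 2 was below the CGE E16.5 arrays and the other 2 above them. It rose by 0.71 ± 0.20 (adjusted p = 0.029) in MGE cells, a call lost in 5 alternatives, including without MGE E14.5 replicate 1 or 2 or MGE E18.5 replicate 1 or 2.

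Cacng4 read 10.29, 10.34 and 10.24 at MGE E14.5, 10.63, 10.52 and 11.05 at MGE E18.5, 10.42, 10.29 and 10.38 at CGE E16.5 and 10.15, 9.89 and 10.21 at CGE E18.5. All MGE E18.5 arrays lay above the other 9. The rise was 0.45 ± 0.14 (adjusted p = 0.046), and the lineage difference changed by 0.72 ± 0.20 (adjusted p = 0.048). Both calls were lost in many alternatives, 11 and 14, but the gene's other probe set was called in both, at 0.50 and 0.90. As for Itpr2, OPC genes were high on the same 3 arrays, and their part in the rise of these 2 TARP genes was not tested.

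Trpm7, whose product joins a cation channel to a kinase, was the only member to rise in CGE cells. It read 8.17, 8.29 and 7.89 at CGE E16.5 and 9.08, 9.54 and 9.26 at CGE E18.5, against 9.05, 9.44 and 8.36 at MGE E14.5 and 8.30, 8.70 and 8.28 at MGE E18.5. The CGE days did not overlap, and the MGE days did. The rise was lost without CGE E16.5 replicate 3 or CGE E18.5 replicate 2. The change was 1.17 ± 0.24 (adjusted p = 0.013) in CGE and -0.52 ± 0.24 (adjusted p = 0.16) in MGE cells. The E18.5 lineage difference was -0.86 ± 0.24 (adjusted p = 0.024), a call lost in 6 alternatives, including without MGE E18.5 replicate 1 or 3 or CGE E18.5 replicate 2 or 3, and the change of the lineage difference was -1.70 ± 0.35 (adjusted p = 0.0087). These values come from a probe set of the _s_at class, which can match more than 1 transcript. The 3 other probe sets of Trpm7 were called in none of these comparisons, with CGE changes of 0.23 to 0.36 and changes of the lineage difference of -0.94 to -0.48.

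**Figure D4:**
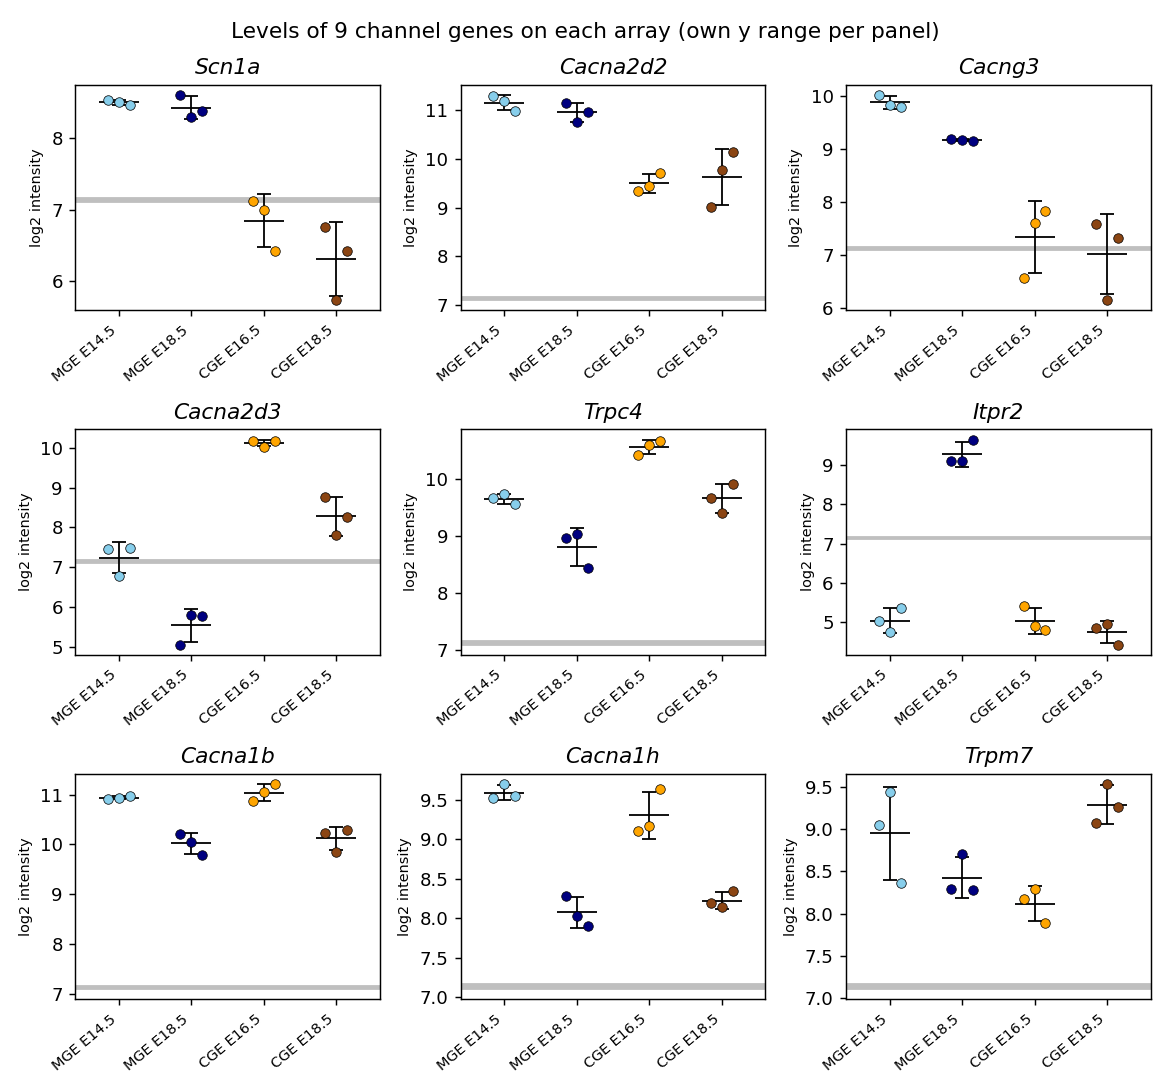
Log2 intensity (y axis, own range in each panel) of 9 channel genes on the 12 arrays by group (x axis): points are arrays, horizontal bars the group means and error bars the SD (n = 3), and the grey band is the filter level of 7.10 to 7.17. Scn1a, Cacna2d2 and Cacng3 are high in MGE groups, Cacna2d3 and Trpc4 in CGE groups, Itpr2 stands above the band at MGE E18.5 alone, and Cacna1b and Cacna1h are lower on the later day in both lineages.

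The change of the lineage difference between stages was called for 3 members on their brightest probe sets: Itpr2 and Cacng4 upwards (6.45% of 31, against 6.75% of all genes) and Trpm7 downwards (3.23%, against 1.88%). A dimmer probe set of Cacna1h also passed, at -1.47 ± 0.32 (adjusted p = 0.013). Over the 4 comparisons between groups, 18 of the 31 tested genes (58.1%) were called at least once, against 38.5% of all 8791 genes. The other 13 were called in none: Ano6, Cacna1c, Cacnb1, Cacng7, Clcn3, Clcn4, Clcn5, Clcn6, Scn2a, Scn2b, Scn8a, Trpc1 and Trpc4ap. This list rests on the brightest probe set of each gene. Other kept probe sets were called for Scn2a and Cacna1c, as given above, for Cacnb1, which fell by 0.87 ± 0.15 in CGE cells (adjusted p = 0.0072), and for Clcn3, which was higher in MGE cells at E18.5 by 0.31 ± 0.10 (adjusted p = 0.044). The group means of Clcn3, Clcn4, Clcn5, Clcn6 and Ano6, genes of endosomal chloride-proton exchangers and of a lipid scramblase, spanned 0.26 to 0.34 log2 units per gene. The 15 genes below the filter were Ano3, Ano4, Cacna1d, Cacna2d1, Cacnb2, Cacng5, Clcn1, Clcn2, Ryr1, Ryr2, Scn7a, Scn9a, Trpc2, Trpc5 and Trpm4, and both ryanodine receptor genes of the table, Ryr1 and Ryr2, were among them.

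Genes that work with these channels were read from 6 lists of 87 genes, of which 62 were in the table and 48 passed the filter. Of the 48, 2 were higher (4.17%, against 4.15% of all genes) and 5 lower (10.4%, against 5.89%) in MGE cells early. At E18.5, 10 were higher (20.8%, against 13%) and 5 lower (10.4%, against 9.85%). In MGE cells 6 rose (12.5%, against 11.4%) and 3 fell (6.25%, against 9.77%) between the days, and in CGE cells 1 rose (2.08%, against 4.52%) and 7 fell (14.6%, against 6.39%). The lineage difference grew for 5 (10.4%, against 6.75%). In the list of sodium channel partners, 3 of 9 fell in CGE cells, among them Fgf12 by 1.09 ± 0.19 (adjusted p = 0.0065) and Fgf11 by 0.74 ± 0.17, genes of intracellular factors that bind the channel's tail. Fgf13, of the same family, was higher in MGE cells at E18.5 by 0.67 ± 0.18 (adjusted p = 0.02).

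Store-operated and reticulum calcium genes were called in 4 of 11 cases at E18.5, all higher in MGE cells (36.4%, where 13% of all genes were). On the same arrays 12 of 13 OPC genes were higher in MGE cells, with a median difference of 4.39, and their part in this list and in the calcium removal genes that follow was not tested. Stim2, the sensor of calcium in the reticulum, was at 8.82 at MGE E18.5 against 7.66 at CGE E18.5, a difference of 1.16 ± 0.12 (adjusted p = 2.1e-05), and rose in MGE cells by 0.73 ± 0.12. Homer2, a scaffold that links glutamate receptors to IP3 receptors, rose in MGE cells by 1.06 ± 0.31 (adjusted p = 0.03), and Jph3, of the junctions between reticulum and surface membrane, was higher at E18.5 by 0.76 ± 0.23. Among 7 genes of calcium removal, Slc8a3, a sodium-calcium exchanger, and Mcu, the mitochondrial uniporter, were higher in MGE cells at E18.5 by 1.12 ± 0.24 and 1.14 ± 0.28. Atp2b2, a surface membrane calcium pump, was at 9.33 at MGE E14.5 and 10.32 at CGE E16.5, a difference of -0.99 ± 0.13 (adjusted p = 0.00046).

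Calcium-binding genes included larger differences. Ncald, the gene of neurocalcin delta, was at 10.54 at MGE E18.5, 7.02 at MGE E14.5 and 6.52 at CGE E18.5, a rise of 3.53 ± 0.21 (adjusted p = 3e-07) and a lineage difference of 4.02 ± 0.21 (adjusted p = 8.5e-08). Calb1, the gene of the buffer calbindin, was higher in MGE cells early by 3.51 ± 0.58 (adjusted p = 0.0022) and fell in them by 2.04 by E18.5. The lower means of Ncald lay below the filter level of 7.10 to 7.17. So did those of Calb1 at CGE E16.5 (5.18) and MGE E18.5 (6.66), against 8.69 at MGE E14.5. Entry of both genes to the test leaned on the group where they were high. Their adjusted p-values are therefore not independent support for that height. Camk4, a nuclear kinase, was lower in MGE cells at both stages, at -1.92 ± 0.35 and -1.24 ± 0.35. Its MGE means, 5.43 and 5.84, lay below the filter level. Among 4 tested partners of voltage-gated calcium channels, Stac2 was higher in MGE cells early by 2.17 ± 0.28 (adjusted p = 0.00039). Stac2 was at 7.94 at MGE E14.5 and below the filter level at CGE E16.5 (5.76) and MGE E18.5 (6.43). The limit given for Calb1 holds for it too. Rem2, a small GTPase that inhibits these channels, was lower in MGE cells at E18.5, at -1.62 ± 0.46 (adjusted p = 0.025). Rims1, of the presynaptic active zone, fell in CGE cells by 1.10 ± 0.28.

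In the anion channel list, Ttyh1, the gene of a membrane protein of neural precursors and glia, was highest in the same group as Itpr2, at 11.49 at MGE E18.5, 7.86 at MGE E14.5 and 8.41 at CGE E18.5, and rose by 3.63 ± 0.24 (adjusted p = 6e-07). Ttyh1 and Ncald were also high on the 3 arrays with high OPC genes, whose part was not tested. Lrrc8c, a subunit of volume-regulated anion channels, was lower in MGE cells at both stages, at -1.01 ± 0.21 and -0.88 ± 0.21. Its MGE means, 6.55 and 6.66, lay below the filter level. Clic4 was lower in MGE cells at E18.5, at -0.59 ± 0.14.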

How the data were processed

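NuGEN Ovation Pico amplified cDNA of sorted cells was hybridised to 12 Affymetrix Mouse430_2 arrays. The authors deposited log2 values, background-corrected and normalised with Bioconductor according to the methods. The processing notes name MAS5 without a version, so the algorithm is not settled. Of 27094 probe sets, 34 controls were left out, and 22339 with 1 symbol in the platform annotation were used. Probe sets above the 40th percentile of their array on at least 3 of 12 arrays were kept (16000), and the brightest per gene represented it, giving 8791 genes. limma 3.58.1 in R 4.3.3 fitted 1 mean per group over all 12 arrays (8 residual and 3.60 prior degrees of freedom). Tests were two-sided, p-values were adjusted by Benjamini-Hochberg over 8791 genes, and code was tested on simulated data. The methods call the 3 arrays of a group independent replicates; embryos per array are not given in the sources used here. MGE E14.5 replicates 1 and 2 were the closest pair. Arrays have no read depth, and their number limits the precision.

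The members and gene lists were chosen with earlier results of these data known. Array values are given for Scn1a, Cacna1b, Cacna2d2 and, per group comparison, up to 5 called members with the largest difference in each direction. Pathway genes are named for up to 3 per list with the largest called difference. Probe sets with suffixes _s_at or _x_at can match several transcripts. Alternatives were no filter or a 60th percentile filter, the mean of probe sets, quantile and median scaling, a robust trended fit, array weights, a fit on compared groups only, averaging MGE E14.5 replicates 1 and 2, a replicate block, and leaving out each array. Promoters are from RefSeq, GRCm38.p6.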

Additional observations from a re-analysis of the deposited data

Results flagged for a closer look

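The lineage difference, MGE minus CGE, changed between the early and the late comparison for 3 members by the interaction test of limma. For Itpr2, the gene of an IP3 receptor, it grew by 4.51 ± 0.32 on the log2 scale (adjusted p = 3.9e-06), from 0.01 to 4.52. Itpr2 passed the filter only through the MGE E18.5 arrays, so this test is not independent of its high level there. For Cacng4, a gene of an AMPA receptor auxiliary protein, it grew by 0.72 ± 0.20 (adjusted p = 0.048), from -0.07 to 0.65. For Trpm7, the gene of a channel kinase, it turned from 0.83 to -0.86, a change of -1.70 ± 0.35 (adjusted p = 0.0087) that the gene's 3 other probe sets did not pass.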

How the results depend on the processing

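Of the 42 member calls over 5 comparisons, 28 were kept in every alternative run, at most 22 per call, 14 were lost in at least 1 and 0 reversed. Counts of called members moved by more than 1.5 times as follows. With array weights, 5 were lower early, 12 fell in MGE cells, 0 rose in CGE cells and the lineage difference grew for 1. All-gene counts there were 995, 1940, 259 and 661 of 8791, against 518, 859, 397 and 593 in the main run. Without a filter, 6 of 46 members tested were lower at E18.5. So were 1061 of 11358 genes, against 866 of 8791 in the main run. With MGE E14.5 replicates 1 and 2 averaged, 1 rose and 4 fell in MGE cells, and the lineage difference grew for 1. All-gene counts there were 752, 457 and 464, against 1005, 859 and 593. With the mean of kept probe sets, 0 rose in CGE cells and the lineage difference shrank for 2. Over all genes 422 and 247 did, against 397 and 165. On the compared groups alone, 5 fell in CGE cells, and with median centring the lineage difference grew for 1. Over all genes these were 100 and 560, against 562 and 593. The cause was not tested.

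Leaving out each array gave 5 to 7 higher and 2 to 2 lower early, 9 to 10 and 2 to 3 late, 1 to 3 rising and 4 to 7 falling in MGE cells, 0 to 1 and 6 to 9 in CGE cells, and a growing lineage difference for 1 to 2 and a shrinking one for 1 to 1. Over all 8791 genes, 213 to 421 were higher and 317 to 582 lower early, and 870 to 1243 and 608 to 903 late. In MGE cells 691 to 1075 genes rose and 461 to 935 fell, and in CGE cells 149 to 442 and 225 to 765. The lineage difference grew for 452 to 686 genes and shrank for 82 to 206. Among the members, rises in MGE cells dropped to 1 without MGE E14.5 replicate 1 or 2 or MGE E18.5 replicate 1, and falls to 4 without MGE E14.5 replicate 1 or 2 or MGE E18.5 replicate 3. The rise of Trpm7 in CGE cells was lost without CGE E16.5 replicate 3 or CGE E18.5 replicate 2. The change of the lineage difference of Cacng4 was called without MGE E18.5 replicate 2 or CGE E18.5 replicate 3, and lost without any of the other 10 arrays.

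Over all groups, the 18 pairs of arrays with the same replicate number had correlated deviations of -0.17 to 0.28. Pairs with other numbers had -0.23 to 0.30, and 5 of 12 arrays correlated best with their own number. Between MGE E14.5 and CGE E16.5, same-number pairs gave 0.07, 0.19 and 0.28, and the other pairs -0.23 to 0.13. Whether the replicate numbers pair the samples was therefore not settled. With a replicate block, 6 members fell in MGE cells and 7 in CGE cells, and the other 8 counts were as without it. All-gene counts of these falls were 765 and 512 with the block, against 859 and 562 without. Signal limits 15 members that lay below the filter, where dim and absent transcripts cannot be separated.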

Other observations

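Some of the 15 members below the filter differed between groups at levels too dim to take as expression. In the fit without a filter, 8 of them passed the threshold in at least 1 of 4 group comparisons. That fit called 404 of all 11358 genes higher and 579 lower early, and 1483 and 1061 late. In MGE cells 1378 rose and 928 fell, and in CGE cells 462 and 556. The share of all genes called at least once is known only for the filtered fit, at 38.5% of 8791, so the 8 have no matched share. Scn7a, the gene of a sodium-sensing channel of glia, read 5.22, 4.99 and 5.22 at MGE E18.5 and 3.84 to 4.06 on the other 9 arrays, a difference of 1.18 ± 0.11 at E18.5. Ano3, an anoctamin gene, read 6.16, 5.43 and 5.86 at MGE E18.5 and 4.39 to 5.01 on the other 9, a difference of 1.24 ± 0.19. These are the same 3 arrays on which Itpr2 was high. Ryr2, the gene of a ryanodine receptor, read 5.43 to 6.69 on the 6 MGE arrays and 3.87 to 4.67 on the 6 CGE arrays, and Cacnb2, a calcium channel beta subunit gene, read 4.70 to 5.08 on MGE and 5.08 to 6.03 on CGE arrays. Cacng5, a TARP gene that lies beside Cacng4 on chromosome 11, read 4.58, 7.95 and 7.36 on the 3 CGE E18.5 arrays and 4.21 to 5.28 on the other 9. It did not pass the threshold. Unlike the genes above, it exceeded the filter level on 2 arrays, and it was left out because the filter asked for at least 3.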
